A study of Mus musculus with 18 samples.

Results

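The 6 genes described here, of 30905 genes in the deposited matrices, are the neurotrophins and their receptors: the ligands Bdnf and Ntf3, the receptors Ntrk2, Ntrk3 and Ngfr, and the sorting receptor Sort1. They were taken by symbol, with no threshold on a measured value, and all 6 had counts. Single-nucleus RNA libraries were made from the hippocampus (Hip) and the prefrontal cortex (PFC) of 9 Kun Ming mice, an outbred stock, with both regions taken from each mouse (18 libraries). The mice were 8 weeks old and formed 3 groups of 3: germ-free mice raised in isolators (GF), specific-pathogen-free mice (SPF), and colonized germ-free mice (CGF), which were GF until 4 weeks of age and then shared cages with SPF mice for 4 weeks. No allele, transgene or drug separated the groups. CGF mice were thus colonized only from 4 weeks of age, by cohousing, and the group does not cover earlier colonization.

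Neurotrophins are small secreted proteins that promote the survival, growth and synaptic plasticity of neurons. Brain-derived neurotrophic factor (Bdnf) acts through the receptor tyrosine kinase TrkB, the product of Ntrk2, and neurotrophin 3 (Ntf3) mainly through TrkC, the product of Ntrk3. The p75 receptor (Ngfr) binds all neurotrophins and, with sortilin (Sort1), their uncleaved precursors, while sortilin also sorts proneurotrophins inside the cell. In the adult hippocampus Bdnf is known as an activity-regulated gene of excitatory neurons and Ntf3 as a gene of dentate granule cells. Ntrk2 is also made as a truncated form without the kinase, which is typical of astrocytes.

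On mm10, with the GENCODE vM21 annotation, Bdnf (ENSMUSG00000048482) lies on the plus strand at chr2:109674700-109727007 and has 11 annotated transcripts, which differ in their first exons. Ntf3 (ENSMUSG00000049107) lies on the minus strand at chr6:126101412-126166910. Ntrk2 (ENSMUSG00000055254) covers 327.4 kb of the plus strand at chr13:58806569-59133970, and Ntrk3 (ENSMUSG00000059146) covers 562.1 kb of the minus strand at chr7:78175959-78738012. Ngfr (ENSMUSG00000000120) lies at chr11:95568818-95587735 on the minus strand and Sort1 (ENSMUSG00000068747) at chr3:108284082-108361511 on the plus strand. Predicted gene models overlap Ntrk2, Ntrk3 and Sort1 on the same strand, so part of their counts may be shared with those models. The libraries read tags near the 3′ end, and a gene's UMIs (unique molecular identifiers, 1 per captured RNA molecule) were summed over all its transcripts. The counts therefore do not separate the first exons of Bdnf, nor full-length from truncated Ntrk2 and Ntrk3.

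Bdnf has several start sites, and RefSeq windows of 250 bases before to 50 after a start site (GRCm38.p6) were at hand for 7 of them, with 2 for Ntf3 and 1 each for Ntrk2 and Ngfr. Motifs of activity-regulated genes were searched on both strands. The cyclic AMP response element TGACGTCA was held by 1.79% of all 32851 windows, its variant CACGTCA by 2.01%, and the EGR site GCGTGGGCG by 0.612%. The search found 1 match in the 11 member windows, the variant in a Bdnf window, first base at −37 from the start site. This window is shown because Bdnf is the member known for regulation by neuronal activity, and the capitals mark the match. It lies at chr2:109692186-109692485 on the plus strand and reads 5′ to 3′:

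Bdnf: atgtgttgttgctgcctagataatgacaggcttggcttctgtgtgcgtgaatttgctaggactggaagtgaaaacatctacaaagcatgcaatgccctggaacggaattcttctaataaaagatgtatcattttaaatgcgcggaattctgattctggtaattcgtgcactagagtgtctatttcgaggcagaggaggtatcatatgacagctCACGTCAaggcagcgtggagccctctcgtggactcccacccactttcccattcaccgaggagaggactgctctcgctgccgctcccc

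The match describes these letters and is not evidence of a bound factor.

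In all, 138000 of 139924 barcodes were kept, 71398 from Hip and 66602 from PFC. The total per library was 49067853 to 63217083 UMIs in Hip. For PFC the SPF libraries held 20336250 to 26949210 UMIs, the CGF libraries 22213863 to 26151503 and the GF libraries 59126586 to 71463928. The median UMIs per nucleus moved with it, at 6721 to 7338 in GF PFC against 2330 to 3187 in the other PFC libraries, and at 4593 to 5810 in GF Hip against 5444 to 7560. All 3 GF PFC libraries were thus deeper than all 6 others, and depth and group cannot be told apart in that region. The mitochondrial share also moved with the groups, at 0.645 to 1.10% in GF Hip against 0.077 to 0.471%, and at 0.359 to 0.594% in GF PFC against 1.28 to 3.22%. Pairs of libraries shared 6 to 29 cell barcodes.

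Nuclei were placed in types by gates on marker genes. Hippocampal fields were gated on Prox1 (granule neurons, 5741 nuclei), Mpped1 (CA1, 6355 nuclei) and Grik4 (CA3, 2693 nuclei), and cortical layers on Cux2 (upper-layer neurons, 8442 nuclei), Rorb (mid-layer neurons, 2315) and Foxp2 (layer 6 neurons, 2093). Genes not used in the gate followed the field names: Glis3 was at 755 CPM (UMIs of the gene per 1000000 UMIs of the type) in granule neurons against at most 22.7 in the other fields. The mid-layer name had weaker support, since Scnn1a was at 1.08 CPM there against 1.0 in the next subclass. For CA3 neurons Coch was likewise close, at 2.43 against 2.30 CPM in the next field, while Trps1 was at 1509 against at most 143 CPM. Most glial and interneuron markers stood well above the next type: in Hip, Mog of oligodendrocytes 43.8-fold, Csf1r of microglia 38.7-fold and Gad2 of interneurons 7.4-fold. For astrocytes Aqp4 stood 6.81-fold above the next type in Hip and 11.3-fold in PFC, whereas Gja1 was at 1.89-fold and 1.10-fold, next to fibroblasts. Gad1 of interneurons was at 2.76-fold and 3.46-fold, next to OPC (oligodendrocyte precursor cells). The excitatory marker Slc17a7 was at 212 CPM in Hip excitatory neurons and at 269 CPM in Hip microglia, so that the excitatory markers were not specific on this scale. Free RNA in the droplets, doublets and nuclei gated to the wrong type were not told apart as sources of these UMIs.

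Bdnf was highest in granule and CA3 neurons of Hip and in upper-layer neurons of PFC. Over the 9 mice, the level in granule neurons was lowest at 54.2 CPM, 65.8 at the median and 80.0 at the highest, with a mean of 65.1 ± 8.34 (SD, n = 9). CA3 neurons held 52.1 ± 11.7 CPM and CA1 neurons 39.9 ± 5.74 CPM. Interneurons were lowest of the large Hip types, at 13.1 ± 4.62 CPM, below endothelial cells in 9 of 9 libraries (exact sign-flip permutation test, adjusted p = 0.017, the smallest that 9 libraries allow).
The glial values came close to those of neurons, from 30.9 CPM in OPC to 40.9 in oligodendrocytes, with endothelial cells at 27.9. The excitatory marker Slc17a7 was present in the same nuclei: the ratio of Bdnf to Slc17a7 ran from 0.148 in microglia through 0.188 in endothelial cells, 0.194 in oligodendrocytes and 0.207 in astrocytes to 0.221 in OPC, against 0.206 in CA1, 0.226 in CA3 and 0.306 in granule neurons. This ratio does not separate a type's own Bdnf from free RNA, and the part of free RNA in the glial values was not tested.

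Counted per nucleus, Bdnf was set apart more sharply. There were 686 ± 223 UMIs per 1000 nuclei in CA3, 540 ± 99.0 in granule and 441 ± 61.6 in CA1 neurons, against 71.9 to 113 in interneurons and glia. In PFC the upper-layer neurons held 383 ± 222 UMIs per 1000 nuclei, the mid-layer neurons 221 and the layer 6 neurons 63.7, with interneurons at 38.6. The wide SD of the upper layer came with the groups: the means were 275 for SPF, 204 for CGF and 669 for GF mice, where the GF libraries were also deeper. On the CPM scale, which divides by the UMIs of the type, upper-layer neurons were at 50.6 ± 12.7, mid-layer neurons at 31.6 ± 10.3 and layer 6 neurons at 10.7 ± 4.57. Among types with at least 20 nuclei in every library, microglia came second on that scale, at 34.4 ± 16.3 CPM. The step from upper-layer neurons to microglia did not pass (exact permutation test, adjusted p = 0.17). Layer 5 neurons, with 13 nuclei in the smallest library, were at 34.7 CPM and were not ordered. Oligodendrocytes (20.5), astrocytes (19.4), endothelial cells (18.1), OPC (12.5) and fibroblasts (12.0) also had means above that of layer 6 neurons, and no step of the PFC order passed.

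**Figure D1:**
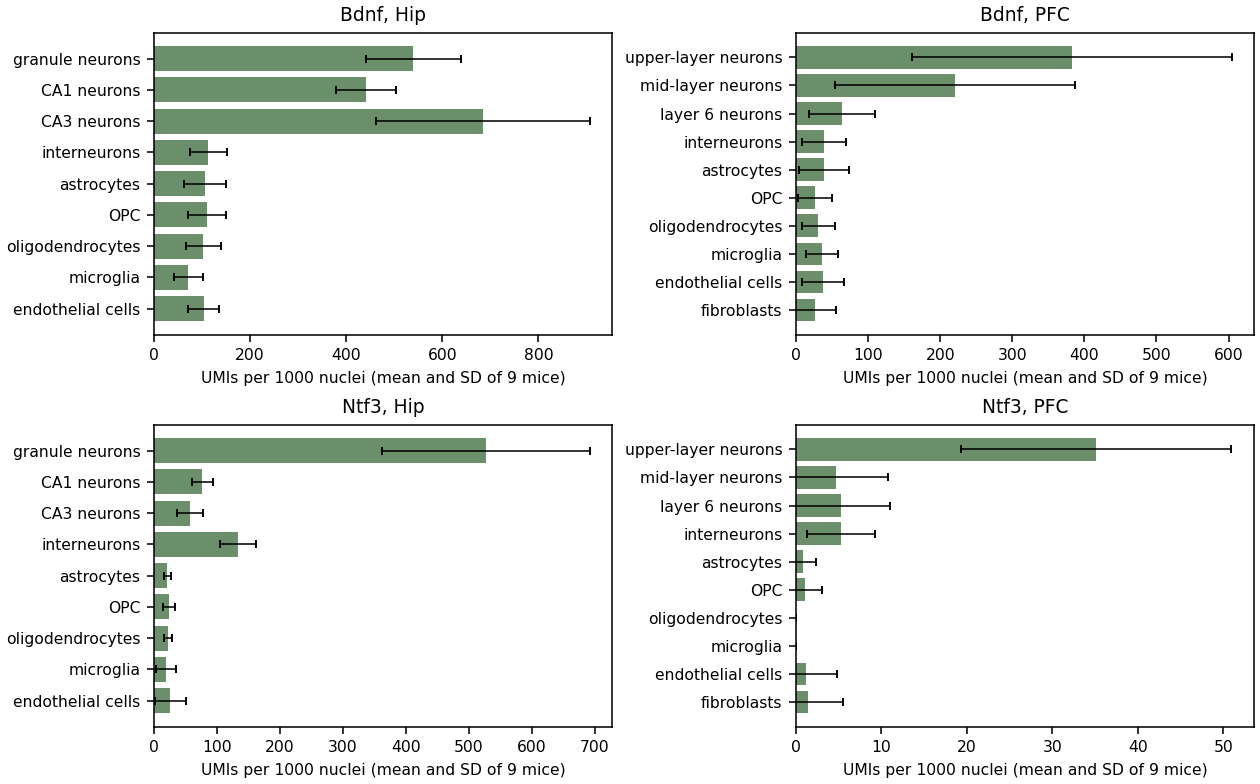
Bdnf and Ntf3 UMIs per 1000 nuclei in gated types of Hip and PFC (bars, mean of 9 mice; lines, SD). Bdnf is spread over the excitatory types, led by CA3 neurons at 686, while Ntf3 stands at 527 in granule neurons and at 35.1 in upper-layer neurons of PFC.

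Ntf3 was centred on granule neurons. Its level there ran from 34.1 CPM through a median of 61.8 to 86.1, with a mean of 63.0 ± 16.3 CPM (n = 9). Among types with at least 20 nuclei in every library, the next was Hip interneurons, at 15.1 ± 2.09 CPM. It was lower in 9 of 9 libraries (exact sign-flip permutation test, adjusted p = 0.017). CA1 neurons held 6.93 and CA3 neurons 4.46 CPM, no more than the 6.57 to 9.86 CPM of glia. As UMIs per 1000 nuclei, granule neurons held 527 ± 166, interneurons 133 ± 28.9, CA1 neurons 76.8, CA3 neurons 57.2 and glia 19.3 to 25.7. The mean of interneurons thus lay above those of the glia on both scales. The step to the next type, microglia, did not pass (higher in 7 of 9 libraries, exact permutation test, adjusted p = 0.088). Nuclei of interneurons also held more UMIs in all than those of glia, and the part of free RNA in these values was not tested.
In PFC, Ntf3 was highest in upper-layer neurons, at 5.46 ± 3.01 CPM, which held 293 of the 724 Ntf3 UMIs of the region. All excitatory neurons, many of them gated to no layer, held 620 of these UMIs, at 2.78 ± 1.72 CPM. Interneurons held 1.13 CPM, below the upper layer by the exact permutation test (adjusted p = 0.023), and layer 6 neurons 0.951 CPM. No Ntf3 UMI was found in PFC microglia (0 of 1861149 UMIs) or oligodendrocytes (0 of 3835419), which allows up to 1.61 and 0.782 CPM by counting error alone.

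Ntrk2 was the receptor of astrocytes and interneurons. Astrocytes of Hip held 905 CPM in the lowest mouse, 1010 at the median and 1478 in the highest, with a mean of 1096 ± 196. Hip interneurons held 856 ± 49.6 CPM, CA1 neurons 547 ± 134, OPC 506 ± 38.2, granule neurons 380 ± 51.2 and CA3 neurons 366 ± 42.1. Each of the steps from astrocytes to interneurons, from interneurons to CA1, from OPC to granule neurons and from CA3 neurons to oligodendrocytes passed the exact permutation test. The steps from CA1 neurons to OPC and from granule to CA3 neurons did not pass. Oligodendrocytes, microglia and endothelial cells held 114 to 163 CPM.
In PFC the Lamp5 (1274 CPM) and Vip (1083 CPM) interneurons had the highest means over the 9 mice. The Lamp5 cells had 15 nuclei in the smallest library. Astrocytes, at 1023 ± 416, ran from 625 to 1779 CPM, and their place turned with the group: the means were 803 for SPF, 734 for CGF and 1534 for GF mice, against 1010, 953 and 885 in all interneurons, and astrocytes were higher in 4 of 9 libraries. Mid-layer neurons (832 CPM) lay above upper-layer neurons (713 CPM) by the exact permutation test. Per nucleus, Ntrk2 in Hip was higher in interneurons and CA1 neurons, at 7536 and 5957 UMIs per 1000 nuclei, than in astrocytes at 3109, whose nuclei held fewer UMIs in all.

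Ntrk3 was highest in granule neurons, Pvalb interneurons and upper-layer neurons. In granule neurons the mice ran from 1083 through 1489 to 1713 CPM (mean 1460 ± 237). CA1 neurons held 909 ± 105, CA3 neurons 850 ± 111, OPC 777 ± 113 and interneurons 728 ± 107 CPM, and oligodendrocytes, microglia, astrocytes and endothelial cells 107 to 210 CPM. Granule neurons exceeded CA1 neurons, CA3 neurons exceeded OPC and interneurons exceeded oligodendrocytes by the exact permutation test, while the step from CA1 to CA3 neurons did not pass after adjustment. The Hip Pvalb interneurons, with 316795 UMIs in 8 libraries, held 1679 ± 596 CPM. They were 42 nuclei in all, 1 to 11 per library, and were not ordered.
In PFC the upper-layer neurons ran from 1089 through 1344 to 1405 CPM (mean 1298 ± 113). Layer 6 neurons held 716 ± 67.6 CPM and mid-layer neurons 410 ± 64.8 CPM. Among the interneurons, Pvalb cells held 1052 ± 243 CPM against 320 in Sst and 277 in Lamp5 cells. The mean of Ntrk2 was thus lower in the upper than in the mid layer, and that of Ntrk3 higher.

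Ngfr was nearly absent from these nuclei. Only 119 of 506761672 Hip UMIs and 37 of 338891878 PFC UMIs were Ngfr. The highest level, 4.72 CPM in choroid plexus nuclei, rested on 5 UMIs, and the highest in PFC, 3.25 CPM in near-projecting neurons, on 4. Hip excitatory neurons had 72 UMIs, or 0.200 CPM. The p75 receptor of basal forebrain axons, which innervate both regions, would not be seen, since their nuclei lie elsewhere.

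Sort1 was the most evenly spread member. Oligodendrocytes held 251 ± 24.7 CPM in Hip, from 205 through 255 to 285, and 218 ± 47.3 CPM in PFC. Microglia (220 CPM), CA1 neurons (213), CA3 neurons (205), astrocytes (187) and granule neurons (182) followed in Hip. OPC were lowest in both regions, at 57.8 ± 10.9 CPM in Hip and 53.7 ± 18.6 CPM in PFC, and lay below interneurons by the exact permutation test. Oligodendrocytes and their precursors therefore stood at opposite ends of the Sort1 order in CPM. In Hip the step from oligodendrocytes to microglia did not pass (exact permutation test, adjusted p = 0.11). Per nucleus, oligodendrocytes held 626 and OPC 208 UMIs per 1000 nuclei in Hip. On that scale CA1 and CA3 neurons, whose nuclei held more UMIs in all, lay above oligodendrocytes.
Of all neighbours in the orders of the members, 14 of 48 pairs in Hip and 11 of 54 in PFC passed the exact test after adjustment over the pairs of a region.

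**Figure D2:**
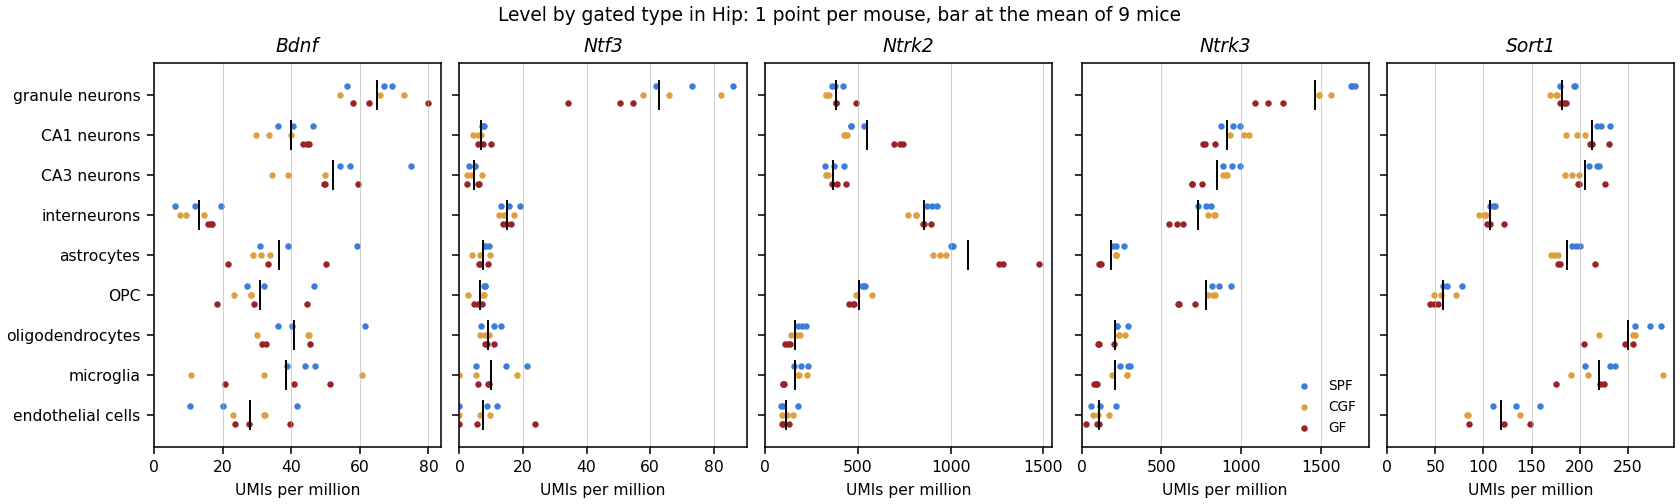
Levels of 5 members in gated types of Hip, in CPM per mouse (points; blue SPF, orange CGF, dark red GF; bars, mean of 9 mice). Ntf3 stands at 63.0 CPM in granule neurons, Ntrk2 at 1096 in astrocytes, Ntrk3 at 1460 in granule neurons and Sort1 at 251 in oligodendrocytes.

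**Figure D3:**
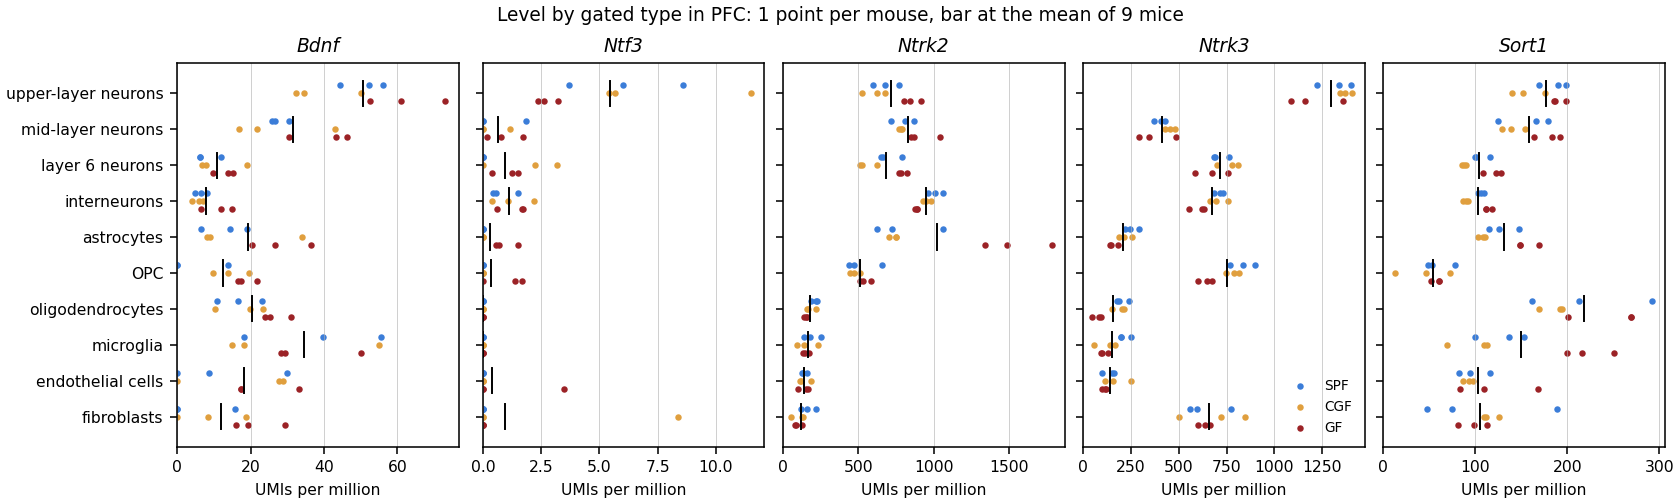
The same levels in gated types of PFC, in CPM per mouse (points as for Hip; bars, mean of 9 mice). Bdnf, Ntf3 and Ntrk3 are highest in upper-layer neurons (50.6, 5.46 and 1298 CPM), and the GF points lie above the others for Ntrk2 in astrocytes.

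The 3 hippocampal fields were compared within libraries by edgeR, with the library as a block (27 sums, 13505 genes). Granule neurons held more Bdnf (log2 difference 0.68 ± 0.09, SE, adjusted p = 2.7e-07), much more Ntf3 (3.15 ± 0.11, adjusted p = 1.5e-19) and more Ntrk3 (0.64 ± 0.04, adjusted p = 2.6e-13) than CA1 neurons, and less Ntrk2 (−0.54 ± 0.06, adjusted p = 9.3e-09) and Sort1 (−0.26 ± 0.04, adjusted p = 5.0e-07). These 5 calls stand beside 64.6% of all genes called between the 2 fields.
Against CA3, with 63.4% of genes called, granule neurons differed in Ntf3 (3.72 ± 0.14), Ntrk3 (0.68 ± 0.04), Sort1 (−0.27 ± 0.04) and, less clearly, Bdnf (0.23 ± 0.10, adjusted p = 0.041). Ntrk2 did not pass between granule and CA3 neurons (−0.05 ± 0.06, adjusted p = 0.49). Between CA3 and CA1, with 45.3% called, CA3 held more Bdnf (0.45 ± 0.10, adjusted p = 0.00034) and less Ntrk2 (−0.49 ± 0.06, adjusted p = 1.0e-07) and Ntf3 (−0.58 ± 0.19, adjusted p = 0.014). In this fit, Ntf3 and Ntrk3 were highest in granule neurons and Ntrk2 was lowest in granule and CA3 neurons. The order of granule and CA3 neurons for Bdnf was less firm. The exact permutation test on CPM did not pass (higher in granule neurons in 8 of 9 libraries, adjusted p = 0.082). Per nucleus the mean was higher in CA3 neurons, whose nuclei held more UMIs in all.

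The genes whose levels followed each member most closely over 19 gated types of both regions were found by Pearson's r among 14059 genes. The types share libraries, depth and free RNA, and the values are a description. For Bdnf they were Cdc40 (0.909), Itpka (0.877), a kinase of inositol trisphosphate in dendritic spines, and Rgs14 (0.866). For Ntf3 they were Lct (0.926), Vwa3b (0.910) and Efcab1 (0.905). For Ntrk2 they were Nol4 (0.952), Ctnnd2 (0.950), which encodes a catenin of neuronal junctions, and Mthfd1 (0.940). For Ntrk3 they were Gria3 (0.933), an AMPA receptor subunit, Rgs7bp (0.929) and Gm19461 (0.924). Sort1 had no close partner, with Acap2 first at 0.786.

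The groups were compared per type with edgeR on the sums per mouse, and values are given as scaled levels (CPM after TMM scaling within a type). A sum over nuclei cannot tell fewer expressing nuclei from less RNA per nucleus. GF–SPF and GF–CGF share the GF mice, so both are given side by side. In Hip, 48 pairs of a member and a type could be tested. Of these, 19 (39.6%) were called between GF and SPF, 3 of them higher and 16 lower in GF, and 16 (33.3%) between GF and CGF, 3 higher and 13 lower. Over all pairs of a gene and a type, 35.9% were called for GF–SPF (19.5% higher and 16.4% lower) and 36.8% for GF–CGF (19.7% higher and 17.1% lower), so the share of member calls was near the background. In PFC, 17 of 50 pairs were called between GF and SPF, 13 higher and 4 lower, and 19 between GF and CGF, 16 higher and 3 lower. The background there was 46.8% (23.8% higher and 23.0% lower) and 46.0% (23.6% higher and 22.4% lower).
Within single types, the shares of all genes called for GF–SPF and GF–CGF that are not given beside a result below were 42.9 and 43.7% in CA3 neurons, 40 and 41.8% in Hip interneurons, 25.5 and 26.2% in Hip microglia, 34.0 and 34.1% in Hip oligodendrocytes and 21.2 and 24.5% in Hip OPC. In PFC they were 54.9 and 54.3% in interneurons, 42.7 and 39.0% in layer 6 neurons and 48.1 and 48.0% in mid-layer neurons.
Between CGF and SPF, 0 of 48 pairs in Hip and 0 of 50 in PFC were called by edgeR, and none by DESeq2, with 1 and 7 pairs at an unadjusted p under 0.05. Of all pairs of a gene and a type, 0.349% were called in Hip and 0.166% in PFC (in Hip excitatory neurons, 98 of 18669 genes, with 2741 at an unadjusted p under 0.05).

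**Figure D4:**
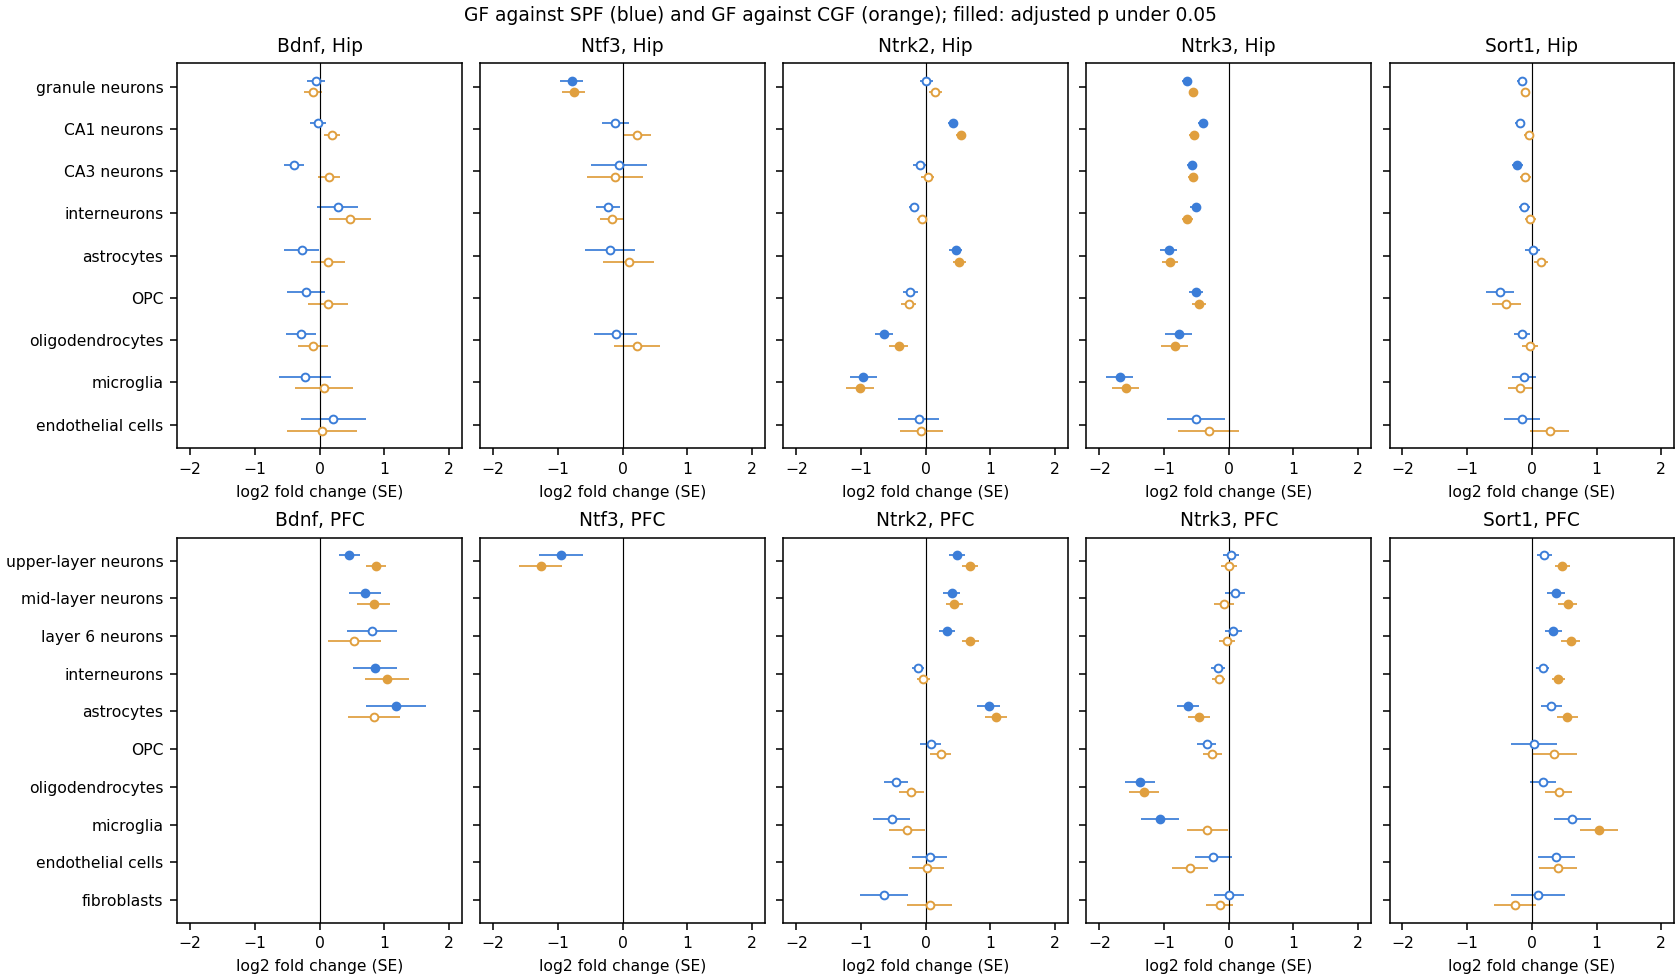
Log2 difference (± SE) of each member between GF and SPF (blue) and between GF and CGF (orange) in every type tested, from edgeR, with filled points for an adjusted p under 0.05. Ntrk3 points lie left of 0 in Hip, Ntrk2 points lie right of 0 in astrocytes of both regions, and Bdnf and Sort1 points lie right of 0 in the excitatory types of PFC.

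Ntrk2, the TrkB gene, was higher in GF astrocytes of both regions. In Hip astrocytes the scaled level was 991, 1008 and 990 in the SPF mice, 920, 1005 and 946 in the CGF mice and 1269, 1308 and 1538 in the GF mice. No GF mouse overlapped the others, and the difference was 0.46 ± 0.10 on the log2 scale against SPF (adjusted p = 0.0026, 33.3% of all genes called) and 0.52 ± 0.10 against CGF (adjusted p = 0.00094, 35.4% called).
In PFC astrocytes the level was 732, 631 and 1144 in SPF, 767, 776 and 780 in CGF and 1571, 1438 and 1920 in GF mice. The GF mice again stood above all others, by 0.97 ± 0.17 against SPF (adjusted p = 6.2e-05, 44.6% called) and 1.09 ± 0.17 against CGF (adjusted p = 1.4e-05, 45.0% called). These 4 calls held under each of the alternatives fitted.
Counted per nucleus, Hip astrocytes did not separate in the same way. They held 3102 to 3834 UMIs per 1000 nuclei in GF and 2987 to 3598 in SPF mice, which overlap, while the CGF mice, at 2637 to 2965, lay below all GF mice. PFC astrocytes ranged from 736 to 1301 (SPF), 872 to 1055 (CGF) and 3656 to 5224 (GF), and the GF libraries there were also deeper.

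Ntrk2 was likewise higher in GF CA1 neurons, and it was not called in granule or CA3 neurons. The scaled level in CA1 was 481, 482 and 534 in SPF, 449, 460 and 469 in CGF and 708, 657 and 639 in GF mice, without overlap. The difference was 0.42 ± 0.08 (adjusted p = 0.0015, 39.2% called) against SPF and 0.54 ± 0.08 (adjusted p = 0.00031, 40.5% called) against CGF. In CA3 it was 408, 330 and 349 in GF mice against 390, 331 and 432 in SPF mice, which overlap (−0.09 ± 0.11). These values depend on the processing. With the trend of the differences with gene length and GC content removed, Ntrk2 was 0.35 against SPF and 0.53 against CGF in CA3 neurons. It was 0.41 and 0.62 in granule neurons and 0.73 and 0.88 in CA1 neurons. All of these were called. The difference between fields, without that step, was itself tested, a comparison chosen after seeing the data: the GF–SPF difference in CA3 minus that in CA1 was −0.51 ± 0.09 (adjusted p = 0.011), beside 0.267% of genes called, and that in granule minus CA1 was −0.33 ± 0.09 (adjusted p = 0.056, 1.66% called).
When only nuclei of 2000 to 6000 UMIs were used, the CA1 differences were 0.19 from SPF (adjusted p = 0.58) and 0.42 from CGF, and neither was called. This window held 606 of the 6355 CA1 nuclei.
In PFC upper-layer neurons it was also higher in GF, at 632, 576 and 777 in SPF, 591, 526 and 618 in CGF and 913, 998 and 870 in GF mice. No GF mouse overlapped, with 0.49 ± 0.13 (adjusted p = 0.0041) against SPF and 0.68 ± 0.13 (adjusted p = 0.00036) against CGF. The first call was lost in nuclei of 2000 to 6000 UMIs (0.34, adjusted p = 0.063). Mid-layer (0.40 ± 0.13 against SPF and 0.45 ± 0.13 against CGF) and layer 6 neurons (0.33 ± 0.13 and 0.69 ± 0.13) were called as well, as were all PFC (0.40 and 0.53) and all Hip excitatory neurons (0.22 and 0.34), but in that window the PFC excitatory neurons against CGF (0.37) were the one call of these 8 that was kept. In Hip oligodendrocytes and microglia Ntrk2 was lower in GF, by −0.65 and −0.96 against SPF and −0.42 and −1.01 against CGF (in oligodendrocytes the last contrast turned to 0.11 with the length and GC trend removed), at levels of 102 to 245 that stand well below those of neurons and astrocytes. Slc17a7 was lower in GF than in SPF nuclei of these types, while in oligodendrocytes the CGF mice overlapped the GF mice (values below), and the part of free RNA in these calls was not tested. In interneurons of both regions no Ntrk2 difference was called. With the length and GC trend removed, that of Hip interneurons between GF and CGF was 0.37 and was called.

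**Figure D5:**
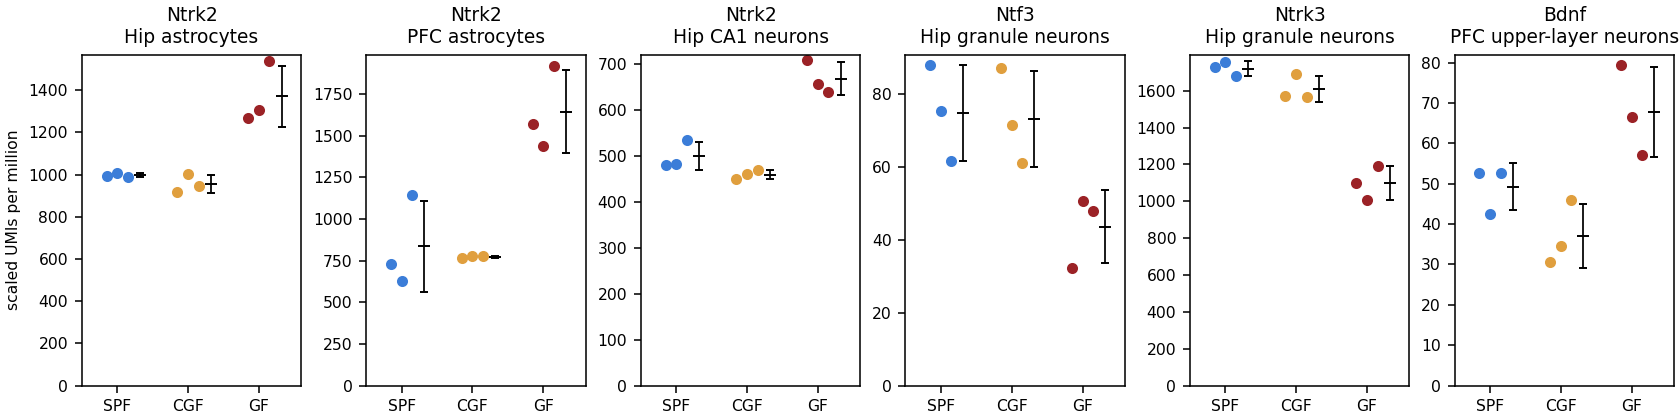
Scaled level (CPM) of single mice (points) with mean ± SD (bars) for Ntrk2 in astrocytes of Hip and PFC and in CA1 neurons, Ntf3 and Ntrk3 in granule neurons, and Bdnf in upper-layer neurons of PFC. The 3 GF mice lie above all 6 others for Ntrk2 and Bdnf, and below all 6 for Ntf3 and Ntrk3.

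Ntf3 was lower in GF granule neurons, its highest type in Hip, which held 2978 of the 10809 Ntf3 UMIs of the region. The scaled level was 87.8, 75.2 and 61.4 in SPF, 87.0, 71.4 and 60.9 in CGF and 32.1, 50.7 and 47.9 in GF mice. All GF mice lay below all others, by −0.79 ± 0.18 (adjusted p = 0.0035, 44.2% called) against SPF and −0.76 ± 0.18 (adjusted p = 0.0045, 44.8% called) against CGF. The same was seen per nucleus, with 251 to 399 UMIs per 1000 granule nuclei in GF against 497 to 771 in the other groups. Both calls held under every alternative fitted.
All Hip excitatory neurons together were called in both contrasts (−0.63 ± 0.17 and −0.55 ± 0.17). Ntf3 was not called in CA1 neurons (−0.11 ± 0.21 against SPF) or interneurons (−0.22 ± 0.18), where GF and SPF mice overlapped. The difference between granule and CA1 neurons in the GF–SPF change, −0.58 ± 0.24, did not pass (adjusted p = 0.23), so that the change was not shown to be particular to granule neurons.
In upper-layer neurons of PFC the level was 8.08, 5.80 and 3.73 in SPF, 10.9, 5.70 and 4.95 in CGF and 2.58, 2.88 and 3.53 in GF mice. The GF mice were the lowest 3 (−0.95 ± 0.34, adjusted p = 0.027, and −1.27 ± 0.33, adjusted p = 0.0049). Neither call was kept in nuclei of 2000 to 6000 UMIs (−0.51 and −0.79, adjusted p = 0.59 and 0.38), and per 1000 nuclei the groups overlapped, at 24.8 to 35.7 in GF and 19.3 to 46.0 in SPF mice.

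Ntrk3, the TrkC gene, was lower in GF in 9 of 10 Hip types against SPF and in 9 of 10 against CGF, but not when the trend of the differences with gene length and GC content was removed, which left 1 of these 18 calls (granule neurons against SPF, −0.23, adjusted p = 0.026) and values of −0.56 to 0.11. Ntrk3 is among the longest genes counted, and the background of calls per type is given above. In granule neurons, its highest type among those tested, the scaled level was 1727, 1756 and 1680 in SPF, 1569, 1690 and 1566 in CGF and 1100, 1007 and 1194 in GF mice. The GF mice lay below all others, by −0.64 ± 0.07 (adjusted p = 3.9e-05) and −0.55 ± 0.07 (adjusted p = 7.4e-05).
CA1 neurons (−0.39 ± 0.08 against SPF), CA3 neurons (−0.58 ± 0.07), interneurons (−0.51 ± 0.08), OPC (−0.51 ± 0.11) and all Hip excitatory neurons (−0.54 ± 0.08) showed like values. The make-up of the pooled types moved with the groups. Sst interneurons, with 460 CPM of Ntrk3, gave 7.39 to 16.7% of the interneuron UMIs in GF Hip, against 1.14 to 2.38% for SPF and 0.981 to 1.40% for the CGF group. In PFC, layer 5 neurons gave 0.289 to 0.339% of excitatory UMIs in GF against 2.19 to 2.91% in SPF mice, and layer 6 neurons 5.52 to 8.87% against 3.97 to 4.24%. The part of these shares in the values of pooled interneurons and excitatory neurons was not tested. Astrocytes went from 194, 213 and 260 in SPF and 214 to 224 in CGF to 109, 117 and 124 in GF mice (−0.93 ± 0.13). In nuclei gated as microglia the difference was −1.69 ± 0.20, at levels of 82.4 to 104 in GF mice, and in oligodendrocytes −0.78 ± 0.20. These glial levels were close to each other and low: Ntrk3 per Slc17a7 was 0.716 to 1.04 in Hip microglia, oligodendrocytes, astrocytes and endothelial cells, against 4.97 in excitatory neurons and 5.63 in OPC. Slc17a7 was itself lower in GF than in SPF mice in microglia (188 to 202 against 346 to 371 CPM), oligodendrocytes (165 to 174 against 217 to 298) and astrocytes (130 to 168 against 180 to 244). The CGF mice, at 220 to 279 in microglia, lay above the GF mice, but at 161 to 280 in oligodendrocytes and 140 to 234 in astrocytes they overlapped them. The part of free RNA in the Ntrk3 values of these types was not tested, and these values are not shown to be RNA of the glia themselves. Endothelial cells were the type not called (−0.51 ± 0.45).
In PFC neurons Ntrk3 was not called: upper-layer neurons held 1185 to 1475 in GF and 1146 to 1414 in SPF mice, which overlap (0.03 ± 0.12), and the differences of excitatory, mid-layer and layer 6 neurons were −0.08 to 0.09 in both contrasts. In nuclei of 2000 to 6000 UMIs, however, the GF–SPF difference of PFC excitatory neurons turned to −0.38 and was called. In the fit of all gated nuclei, the calls of Ntrk3 in PFC lay in glia, all lower in GF. PFC astrocytes were lower in GF, at 149, 159 and 195 against 222, 248 and 312 in SPF mice (−0.64 ± 0.17, adjusted p = 0.0036), and less so against CGF, where the mice overlapped (−0.46 ± 0.17, adjusted p = 0.027), with a difference of 0.0018 in nuclei of 2000 to 6000 UMIs. PFC microglia were lower against SPF, at 120 to 169 against 264 to 341 (−1.06 ± 0.29, adjusted p = 0.0027), and not called against CGF (−0.33 ± 0.32). PFC oligodendrocytes went from 202, 188 and 268 in SPF and 216, 248 and 162 in CGF to 54.8, 95.3 and 105 in GF mice. No GF mouse overlapped, with −1.38 ± 0.23 (adjusted p = 2.9e-05, 40.6% called) and −1.31 ± 0.24 (adjusted p = 5.9e-05, 40.7% called). Per 1000 nuclei these cells held 188 UMIs (SPF), 182 (CGF) and 174 (GF), and GF nuclei of PFC held more UMIs in all. Their Ntrk3 (156 CPM) was close to that of microglia (149 CPM) and endothelial cells (141 CPM), and Slc17a7 was present in them at 270 to 345 CPM in SPF, 180 to 228 in CGF and 190 to 238 in GF mice. The part of free RNA in the PFC glial values was not tested.

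Bdnf was not called in the hippocampal fields. In granule neurons it was 57.5, 68.8 and 69.0 in SPF, 76.9, 71.2 and 57.0 in CGF and 75.3, 58.2 and 54.9 in GF mice, and the groups overlapped (−0.05 ± 0.14 against SPF, −0.11 ± 0.14 against CGF). CA1 (−0.03 ± 0.12) and CA3 neurons (−0.39 ± 0.16, adjusted p = 0.063) were not called against SPF either. Over all Hip excitatory neurons, which hold more nuclei than the gated fields, Bdnf was 54.5, 57.7 and 56.4 in SPF and 54.2, 45.1 and 46.7 in GF mice. The difference was small (−0.21 ± 0.07, adjusted p = 0.041, 46.0% called) and not called against CGF (−0.09 ± 0.07, 45.7% called).
In PFC Bdnf was higher in GF. Upper-layer neurons held 52.6, 42.5 and 52.7 in SPF, 30.6, 34.7 and 45.9 in CGF and 79.5, 66.6 and 57.2 in GF mice. The GF mice were the highest 3, by 0.46 ± 0.16 (adjusted p = 0.021, 59.0% called) against SPF and 0.87 ± 0.16 (adjusted p = 0.00037, 57.5% called) against CGF. The second call held under every alternative fitted. The first was lost in nuclei of 2000 to 6000 UMIs (0.30, adjusted p = 0.30).
Mid-layer neurons held 51.2, 34.6 and 48.2 in GF against 24.6, 29.2 and 26.9 in SPF mice (0.70 ± 0.25, adjusted p = 0.024), while 1 CGF mouse at 40.4 overlapped the GF range (0.84 ± 0.25, adjusted p = 0.0097). In layer 6 neurons the difference from SPF was 0.81 ± 0.38 and not called (adjusted p = 0.098). All PFC excitatory neurons were called in both contrasts (0.42 ± 0.13 and 0.76 ± 0.13). Interneurons (0.85 ± 0.34 against SPF and 1.04 ± 0.34 against CGF) and astrocytes (1.18 ± 0.46 against SPF) were called at low levels. In PFC the ratio of Bdnf to Slc17a7 was 0.0831 in interneurons and 0.106 in astrocytes, against 0.154 in upper-layer, 0.0906 in mid-layer and 0.0301 in layer 6 neurons, so that it does not set the excitatory types apart, and the part of free RNA in these calls was not tested.

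Sort1 was higher in GF excitatory neurons of PFC and slightly lower in those of Hip. In PFC excitatory neurons it was 148, 169 and 161 in SPF, 124, 147 and 128 in CGF and 183, 192 and 191 in GF mice. The groups did not overlap (0.24 ± 0.09, adjusted p = 0.030, 62.8% called, and 0.51 ± 0.09, adjusted p = 0.00037, 61.9% called), though in nuclei of 2000 to 6000 UMIs the difference from SPF was −0.03. In Hip excitatory neurons it was 218, 218 and 200 in SPF and 190, 180 and 183 in GF mice (−0.20 ± 0.06, adjusted p = 0.018), and it was not called against CGF (−0.09 ± 0.06). Among the fields, CA3 neurons were called against SPF (−0.23 ± 0.08, adjusted p = 0.044). Mid-layer and layer 6 neurons of PFC were higher in GF against SPF (0.38 and 0.33) and CGF (0.55 and 0.60), and upper-layer neurons (0.47), interneurons (0.41) and astrocytes (0.55) against CGF. In nuclei of 2000 to 6000 UMIs no Sort1 call of the excitatory types of PFC or of PFC astrocytes was kept.
In PFC microglia, which in brain clear debris and sense injury, Sort1 was 132, 208 and 190 in SPF, 153, 97.3 and 147 in CGF and 279, 316 and 253 in GF mice. The GF mice were the highest 3, and the difference was called against CGF (1.04 ± 0.29, adjusted p = 0.0037, 39.2% called) and not against SPF (0.63 ± 0.28, adjusted p = 0.073). Oligodendrocytes, the type with the highest mean in CPM, were not called in either region. Ngfr passed the count filter only in Hip excitatory neurons in the comparison of the groups, and was not called there (0.23 ± 0.56 against SPF).
Of the 71 calls of members between GF and either other group, in types of which some lie within others, 14 held under every alternative fitted: Ntrk2 in astrocytes of both regions, Ntf3 in granule neurons and Ntrk3 in PFC oligodendrocytes in both contrasts, Ntrk3 in granule neurons against SPF, and, against CGF, Bdnf and Ntrk2 in PFC excitatory and upper-layer neurons and Sort1 in PFC microglia. PFC oligodendrocytes and microglia could not be fitted in the window of 2000 to 6000 UMIs, so that 3 of the 14 were not put to that alternative. The share of calls over all genes that held in the same way is not given. Pooled over the groups, Ntrk2 per Slc17a7 was 6.62 in Hip and 5.79 in PFC astrocytes and 2.25 and 2.11 in excitatory neurons. Ntrk3 per Slc17a7 was 0.643 in PFC oligodendrocytes and 2.37 in PFC excitatory neurons. The Slc17a7 level itself moved with the groups. Excitatory neurons of SPF, CGF and GF mice had means of 196, 168 and 281 CPM (Hip) and 493, 437 and 262 CPM (PFC). These ratios do not separate a type's own RNA from free RNA. The part of free RNA in the 14 calls was not tested. The make-up of PFC excitatory neurons also moved with the groups, as given above.

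Hip and PFC were compared in the 18 libraries, in each group. In excitatory neurons the Hip minus PFC difference of Ntf3 on the log2 scale was 3.24 ± 0.33 (GF), 3.51 ± 0.35 (SPF) and 2.93 ± 0.33 (CGF), and that of Ntrk2 was −0.71 ± 0.10, −0.47 ± 0.10 and −0.47 ± 0.10. These calls stand beside 32.4, 67.8 and 68.5% of all genes called in the 3 groups. Interneurons showed the same excess of Ntf3 in Hip (3.45, 4.42 and 3.83), beside 4.64, 55.5 and 56.4% called, while Ntrk2 was not called there in any group. The part of free RNA in the Ntf3 excess of interneurons was not tested. In PFC astrocytes the SPF and CGF libraries, and in PFC oligodendrocytes all libraries, were at 0 for Ntf3, and GF astrocytes rested on 4 UMIs, so no fold is given for these types although edgeR called them.
Bdnf, Sort1 and Ntrk3 of excitatory neurons were higher in Hip than in PFC in SPF (0.78 ± 0.11, 0.56 and 0.51) and CGF mice (0.99 ± 0.11, 0.69 and 0.43). In GF mice the values were 0.10, 0.06 and −0.09 and not called. Ngfr of excitatory neurons was called in GF mice (adjusted p = 0.0060), on 28 UMIs in Hip and 3 in PFC, a ratio of 11.7 with an exact 95% counting interval of 3.62 to 60.3. It was not called in SPF or CGF mice.
Other types gave further calls. Interneurons of Hip were above those of PFC in SPF and CGF mice for Bdnf (1.14 and 1.13), Sort1 (0.26 and 0.40) and Ntrk3 (0.33 and 0.47). In nuclei of 2000 to 6000 UMIs these Ntrk3 values turned to −0.24 and −0.30. The Hip libraries of SPF and CGF mice held more UMIs than their PFC libraries. The part of depth was not tested, since that window picks nuclei by their own UMIs. Astrocytes of Hip were above those of PFC in SPF and CGF mice for Sort1 (0.56 and 0.68) and, in SPF mice, for Bdnf (1.70 ± 0.47). Oligodendrocytes were above for Bdnf in SPF (1.54) and CGF mice (1.15), and for Ntrk3 in GF mice (0.83 ± 0.23, adjusted p = 0.039), unlike excitatory neurons. OPC were called for Bdnf in SPF mice, on 84 UMIs in Hip and 2 in PFC, a ratio of 7.87 with an exact 95% counting interval of 2.11 to 66.1. Microglia of Hip were above for Sort1 (1.14) and Ntrk3 (0.92) in CGF mice. Of all genes, 27.7, 29.1 and 3.72% were called in oligodendrocytes of SPF, CGF and GF mice, 14.9, 16.4 and 2.03% in microglia and 22.8, 26.3 and 1.3% in OPC, and the part of free RNA in the glial calls was not tested.
The difference between regions in the GF–SPF change was tested as an interaction: the GF–SPF change in Hip minus that in PFC was −0.68 ± 0.15 for Bdnf (adjusted p = 0.0010), −0.50 ± 0.10 for Sort1 (adjusted p = 0.00063) and −0.60 ± 0.15 for Ntrk3 (adjusted p = 0.0028), beside 52.1% of all genes called. In interneurons it was −0.34 ± 0.13 for Ntrk3 (adjusted p = 0.043), beside 41.8%. The depth of the GF libraries also differed between regions in opposite directions, and its part in these values was not tested. In nuclei of 2000 to 6000 UMIs, Bdnf kept its call (−0.65, edgeR, adjusted p = 0.030) and Sort1 (−0.12) and Ntrk3 (−0.21) did not. That window picks nuclei by their own UMIs and does not match the depth of the libraries.
With the mouse as a block, 6 further calls were made, all in astrocytes: the interaction for Ntrk2 (−0.54, adjusted p = 0.026) and Bdnf (−1.48, adjusted p = 0.032), the excess of Ntrk2 in Hip over PFC in SPF (0.33, adjusted p = 0.047) and CGF mice (0.34, adjusted p = 0.030), that of Bdnf in CGF mice (0.95, adjusted p = 0.038), and lower Ntrk3 in Hip in GF mice (−0.48, adjusted p = 0.012). No call was lost. Without the block, 21.4% of all genes were called in astrocytes for the interaction and 35.3, 40.7 and 6.64% for Hip against PFC in SPF, CGF and GF mice.

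A list of 63 genes of the pathway was followed, and 59 were tested in some type. It held ligands, receptors, sortilins, partners of p75, adaptors of Trk, kinases with CREB, and enzymes that process proneurotrophins. The 6 members are part of this list, so the counts below include member calls given above. Between GF and SPF, 30 of 59 list genes were called in Hip excitatory neurons, 6 higher and 24 lower, with a list median of −0.21 against 0.04 for all genes tested. Hip astrocytes had 18 of 54 called (3 higher, 15 lower) and granule neurons 27 of 55 (6 higher, 21 lower). In PFC excitatory neurons 32 of 58 were called, 16 in each direction, and in PFC astrocytes 18 of 46 (8 higher, 10 lower). Of all genes, 25.1% were higher and 20.9% lower in Hip excitatory neurons, 18.4 and 14.9% in Hip astrocytes, 23.6 and 20.6% in granule neurons, 32 and 30.8% in PFC excitatory neurons and 22.7 and 22.0% in PFC astrocytes. Between GF and CGF, 10 list genes were higher and 16 lower in Hip excitatory neurons (list median −0.115). In Hip astrocytes 4 were higher and 18 lower, and in granule neurons 9 and 17. For PFC these counts were 20 and 14 in excitatory neurons and 10 and 9 in astrocytes. The shares of all genes called for GF–CGF in these 5 types were 45.7, 35.4, 44.8, 61.9 and 45.0%, in that order.
Of the 15 kinases and CREB genes, 1 rose and 8 fell in GF Hip excitatory neurons against SPF, and 4 rose and 9 fell in PFC. Against CGF, 1 rose and 5 fell in Hip, and 5 rose and 7 fell in PFC. Of the 5 sortilin family genes, Sort1 included, 0 rose and 3 fell in Hip excitatory neurons against SPF, while 3 rose and 1 fell in PFC. Against CGF, 0 rose and 2 fell in Hip, and 2 rose and 1 fell in PFC. Between CGF and SPF no list gene was called in any type by edgeR, with 52 of 530 pairs of a list gene and a type in Hip and 56 of 598 in PFC at an unadjusted p under 0.05.
Bex3, which encodes a p75-binding protein, rose in GF Hip excitatory neurons (1.19 ± 0.24 against SPF and 1.51 ± 0.24 against CGF) and granule neurons (1.05 ± 0.18 and 1.34 ± 0.19). Maged1, another partner of p75, fell in GF PFC excitatory neurons (−2.40 ± 0.11 against SPF and −2.10 ± 0.11 against CGF). Sorcs1, a sortilin relative, fell in GF Hip astrocytes (−2.76 ± 0.37 and −2.93 ± 0.36), as did Sorcs3 against SPF (−1.52 ± 0.30). Rps6ka1, a kinase downstream of Erk, fell in GF Hip excitatory neurons against SPF (−0.83 ± 0.21). Removal of the length and GC trend lowered the number of list calls in Hip excitatory neurons and Hip astrocytes, as given below. The values of single list genes were not followed under that step.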

How the data were processed

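Nuclei of Hip and PFC from 9 mice were sequenced with a 10x Genomics 3′ kit. The labels name its version 3.1 in the extract protocol and another version in the design text. The deposited counts are raw whole-number UMIs per gene and nucleus, made by the authors with Cell Ranger (3.1.0 per the file headers) on mm10, 1 matrix per library, without normalization. The submitters' processing notes also name CASAVA 1.8. Whether intronic reads were counted is not given in the sources used here.

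Barcodes were kept with at least 200 genes and at most 10% of UMIs from mitochondrial genes. Types were gated on summed UMIs of marker lists per 10000, with single anchor genes for fields, layers and interneuron classes (at least 2 UMIs). Nuclei that met no gate and nuclei carrying markers of another class were left ungated (10652 in Hip, 10351 in PFC, both kinds together). Leaving out nuclei with mixed markers is also how doublets were treated, and they were not counted apart. The gate limits were set after seeing the data. Of granule nuclei, 14.0% lay within a factor of 1.25 of a limit. The members, though taken by symbol alone, and the marker and pathway lists were chosen with earlier results of these data known.

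UMIs were summed per library and type (at least 20 nuclei) and tested with edgeR 4.0.16 in R 4.3.3 (filterByExpr, TMM, glmQLFit, glmQLFTest), the 3 groups of a region in 1 fit, with Benjamini-Hochberg adjustment over all genes tested in a type (threshold 0.05). The SE is the one that belongs to the quasi-likelihood F. Levels are CPM (UMIs per 1000000 UMIs of the type in that library), and intervals and floors (3 counts) cover counting error only. Neighbours in the order of levels were compared by two-sided exact sign-flip permutation tests on log2(CPM + 1) over 9 libraries, where 0.0039 is the smallest p. The mice are separate animals. Both regions came from the same mouse, and the deviations of a mouse in its 2 regions correlated by 0.16 to 0.33 over genes in excitatory neurons, by 0.026 to 0.165 in interneurons and by −0.081 to 0.20 in the other types. The mouse entered as a block in the alternative fit. Scripts were tested on simulated data. DESeq2 1.42.0 and other alternatives were run. The rule for named genes took every member in every gated type, where pairs not called are given mostly as counts, and of the pathway list up to 2 called genes per type with the largest differences.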

Additional observations from a re-analysis of the deposited data

Results flagged for a closer look

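Of the values above, 5 are flagged because a change between GF and SPF differed between regions or fields by a test of the difference itself. In excitatory neurons the GF–SPF change in Hip minus that in PFC was −0.68 for Bdnf, −0.50 for Sort1 and −0.60 for Ntrk3, and in interneurons it was −0.34 for Ntrk3. For Bdnf and Sort1 in excitatory neurons, the mean of the GF mice lay below that of the SPF mice in Hip and above it in PFC. GF libraries were the deepest in PFC and not in Hip, and in nuclei of 2000 to 6000 UMIs the Bdnf value was −0.65 (edgeR, adjusted p = 0.030), while Sort1 (−0.12) and Ntrk3 (−0.21) in excitatory neurons were no longer called and Ntrk3 in interneurons was 0.09. The GF–SPF difference of Sort1 in PFC excitatory neurons turned to −0.03 there. The GF–SPF change of Ntrk2 in CA3 minus that in CA1 was −0.51, in a comparison chosen after seeing the data. No cause was tested.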

How the results depend on the processing

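Libraries of GF mice were deeper than all others in PFC, in Hip their depths overlapped those of the others at the lower end, and most calls lie where much of the transcriptome was called. With the trend of gene length and GC content removed, calls of members between GF and SPF went from 19 to 7 in Hip and from 17 to 11 in PFC, those between GF and CGF in Hip from 16 to 8, and the called list genes from 30 to 18 in Hip excitatory neurons and from 18 to 9 in Hip astrocytes. In nuclei of 2000 to 6000 UMIs, chosen after seeing the data, they were 11 and 5 for GF–SPF, 9 and 11 for GF–CGF, 2 for the interaction (4 otherwise), 8, 3 and 6 for Hip against PFC in CGF, GF and SPF mice (15, 7 and 15 otherwise), and 2 list genes in PFC astrocytes (18 otherwise). These sums hold fewer nuclei, and PFC fibroblasts, microglia, oligodendrocytes, OPC and Pvalb interneurons could not be fitted. The window picks nuclei by their own UMIs. The medians of the GF PFC libraries (6721 to 7338) lay above it and those of the other PFC libraries (2330 to 3187) within it. It thus keeps unlike parts of the nuclei and does not match depth, so a call kept or lost there does not tell the part of depth. A stricter gate gave 7 list genes in PFC astrocytes, and no filter on low counts gave 1 call between CGF and SPF in Hip. The shares of all genes called under these alternatives, and without 1 mouse, are not given here. A lower count is therefore not set apart from fewer calls over all genes.

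Leaving out 1 mouse gave 9 to 18 calls for GF–SPF in PFC (9 without SPF mouse 30, 10 without GF mouse 5, 11 without GF mouse 6 or SPF mouse 31), 17 to 21 for GF–CGF, and in Hip 15 to 20 and 14 to 16. It gave 11 to 15, 11 to 17 and 6 to 8 for Hip against PFC in SPF, CGF and GF mice, 3 to 6 for the interaction, and for list genes 24 to 32, 15 to 20, 28 to 33 and 11 to 19 in excitatory neurons and astrocytes of Hip and excitatory neurons and astrocytes of PFC (11 without SPF mouse 32).

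Signs turned after removal of the length and GC trend for Ntrk2 between GF and SPF in CA3 neurons (0.35) and between GF and CGF in Hip interneurons (0.37) and Hip oligodendrocytes (0.11), and for Ntrk3 between GF and CGF in CA3 neurons (0.072), granule neurons (0.0077) and Hip OPC (0.11). In the window of UMIs they turned for Ntrk3 between GF and CGF in PFC astrocytes (0.0018), Sort1 (−0.032) and Ntrk3 (−0.38) between GF and SPF in PFC excitatory neurons, and Ntrk3 in interneurons for Hip against PFC in SPF (−0.24) and CGF mice (−0.30) and the interaction (0.088). Under the stricter gate Sort1 in CA1 against CA3 turned (−0.00185). Of these, Ntrk2 in CA3 neurons and Hip interneurons and Ntrk3 (GF–SPF) in PFC excitatory neurons were called only after the sign turned. The cause was not tested. The length and GC trend moved the median of all genes by up to 0.133.

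The mouse as a block (pairing of both regions) added the 6 astrocyte calls given above, lost none and changed no other call. DESeq2 gave the same outcome for 288 of 294 single results, lost 5 calls and added 1. With the size factors of DESeq2 the outcome was the same for 320 of 324, with 2 calls lost and 2 added. Most of these results were called in neither fit. Counts of a few UMIs per mouse limit Ngfr everywhere and Ntf3 in PFC.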
